A study of Equus caballus with 22 samples.

Results

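SPI2 and PAG are 2 horse genes that bear on proteolysis at the surface between mare and conceptus. They were followed by all array probes annotated with their RefSeq transcripts, NM_001114533 for SPI2 and NM_001081943 for PAG, and both versions of the array annotation in the files gave the same assignment. This yielded 7 of the 43603 probes, 2 for SPI2 (A_69_P000956 and A_69_P023398) and 5 for PAG (A_69_P000111 to A_69_P000115), and 2 of the 675 genes with a symbol. The genes were picked because earlier results of these data placed them among the named genes lower in pregnancy at day 8. Their day 8 values and every comparison that contains day 8 arrays are therefore given as a description without a test, and the test is that of the day 12 difference, which was not used in the choice. Its spread is estimated over the arrays of both days, and for SPI2 the p from day 12 arrays alone is given beside it.

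SPI2 encodes a serpin, a protein that traps a serine protease by offering it a loop as bait and then locks it in an inactive complex. It belongs to the alpha-1-antitrypsin group of the horse, whose members restrain enzymes released by inflammatory cells. PAG encodes a pregnancy-associated glycoprotein of the pepsin family of aspartic proteases. Such proteins are best known as secretory products of the ruminant trophoblast, and in the horse the transcript has been described in the outer layer of the placenta. Uterine secretions feed the equine conceptus, which stays free in the uterine lumen during the period studied.

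The samples were biopsies of the endometrium, the lining of the uterus, from warmblood mares. They fell into 4 groups, namely 6 pregnant mares at day 12, the same 6 as non-pregnant controls at day 12, 5 pregnant mares at day 8, and the same 5 as non-pregnant controls at day 8. In pregnant mares the biopsy followed recovery of the embryo, and all samples were bulk tissue hybridised singly in 1 colour (Cy3). Mares numbered 1, 2, 4, 5 and 6 have arrays of both days, but the labels do not say whether a number stands for the same animal on both.

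No array had a saturated spot, and 74.2% to 92.9% of spots per array were well above background, the detection flag of the scanner software. Between days the arrays differed in slide, scan day and software version as well as in stage, and these cannot be told apart. The day 12 differences of mare 3 stood apart, since over 38203 probes they correlated at -0.07 with those of the remaining 5 mares averaged, against 0.11 to 0.49 for every other mare, so that the SPI2 and PAG differences of day 12 are also given without this mare. The epithelial gene ESRP1 and the stromal genes DCN and LUM, the measured markers of the main endometrial compartments, were well above background on all arrays. In bulk tissue, fewer cells of a type and less RNA per cell cannot be told apart.

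SPI2 was higher in pregnant than in control endometrium in 6 of 6 mares at day 12, by both of its probes, but the difference missed the threshold over all probes. Levels are given as a percentage of the 75th percentile of spot intensity on the same array. By probe A_69_P000956 the pregnant samples stood at 19.4% in mare 1, 5.31% in mare 2, 6.39% in mare 3, 13.3% in mare 4, 15.9% in mare 5 and 6.22% in mare 6. The control samples stood at 2.49% in mare 1, 2.07% in mare 2, 3.701% in mare 3, 1.14% in mare 4, 6.59% in mare 5 and 2.41% in mare 6. The groups overlapped only through mare 5, whose control sample lay above the pregnant samples of mares 2, 3 and 6. The probe was well above background on all 22 arrays.

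The mean difference at day 12 by this probe was 1.88 ± 0.38 log2 (SE, n = 6 mares), a 3.68-fold higher level in pregnancy with a 95% interval of 2.06 to 6.58-fold, and limma's test gave an unadjusted p of 0.000402 and an adjusted p of 0.0702. Mares differed widely, from 1.73-fold in mare 3, 2.41-fold in mare 5, 2.56-fold in mare 2 and 2.58-fold in mare 6 to 7.79-fold in mare 1 and 11.7-fold in mare 4. The ratio of mare 4 rests on a dim control spot, with a median signal of 26 against a local background of 16. Both arrays of a mare were always on 1 slide, and the mean difference was positive on each of the 4 slides of day 12, from 1.27 to 2.46 log2. The SPI2 probe ranked 220 by p among the 38461 probes tested. Fitted on the day 12 arrays alone, the difference had an unadjusted p of 0.00131 and an adjusted p of 0.234 by limma. In an exact sign-flip permutation test over the 6 mares p = 0.0312, two-sided and for this probe alone, which is the smallest value that 6 pairs can give.

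**Figure D1:**
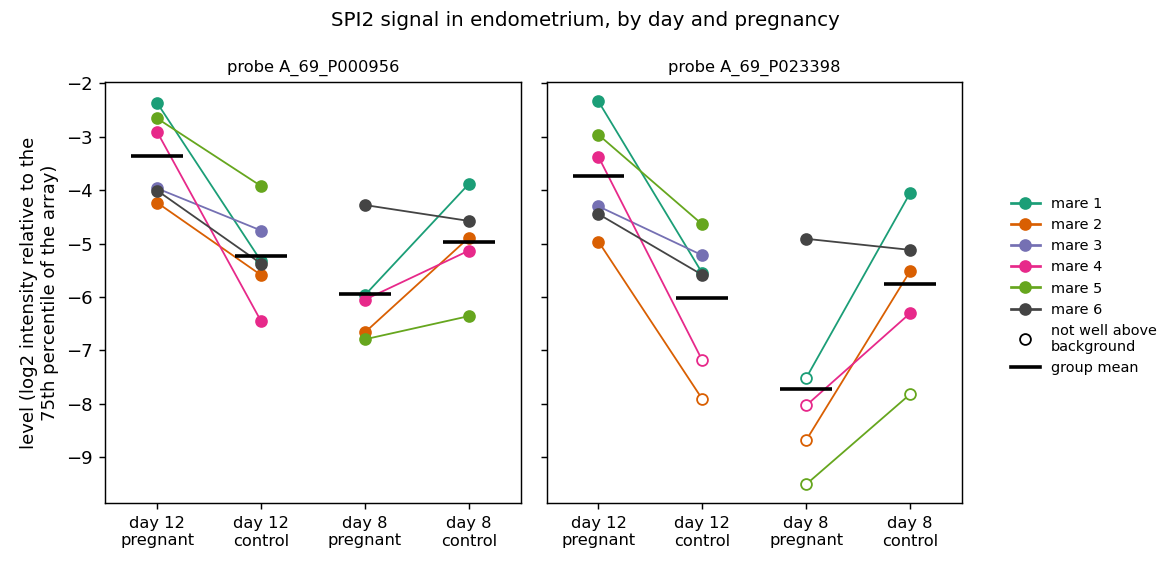
SPI2 level on each of the 22 arrays (y axis, log2 of intensity over the array's 75th percentile) by group (x axis), 1 panel per probe. Lines join the pregnant and the control sample of a mare, open circles are not well above background and bars are group means. At day 12 all 6 lines descend towards the control, whereas at day 8 they ascend in 4 of 5 mares.

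The second SPI2 probe, A_69_P023398, also stood higher in pregnancy in 6 of 6 mares at day 12. At day 12 it ranged from 3.20% over a median of 7.35% to 19.8% in pregnant samples and from 0.414% over a median of 2.10% to 4.00% in controls, and the detection flag was set on 6 of 6 arrays in pregnancy and on 4 of 6 in controls. The difference was 2.29 ± 0.48 log2 (SE, n = 6 mares, limma adjusted p = 0.0759, or 0.16 from day 12 arrays alone), set against 2 control values, those of mares 2 and 4, that were not well above background. Across the 22 arrays the levels of both probes correlated at 0.96 and across the 11 within-mare differences at 0.97, as a description, since both probes read the same RNA on the same arrays. Neither of the 2 SPI2 probes passed the adjusted threshold, which 0.265% of all probes did, and both were higher with an unadjusted p under 0.05, as were 5.67% of all probes.

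Whether SPI2 passed at day 12 depended on how the values were processed. Its direction could have changed only with normexp, quantile normalisation or the authors' deposited value table, and it did not. The other settings kept the main estimate or averaged over mares and probes that were all higher. Over 17 alternative settings that give an adjusted p, that of probe A_69_P000956 ran from 0.0275 to 0.339 and passed in 4. Without mare 3, which had the smallest SPI2 difference, the difference was 2.10 ± 0.40 log2 with a limma adjusted p of 0.0275. Far more probes passed then, 977 against 102. Leaving out any other mare number gave an adjusted p of 0.0934 to 0.257 by limma. Those runs also dropped the day 8 arrays of that number, whereas mare 3 has day 12 arrays only. The probe also passed when only probes well above background on all 22 arrays were tested (0.0448), with a trended robust prior (0.0383) and in the authors' deposited value table (1.33 ± 0.24, 0.0289). With normexp background correction the difference was 1.24 ± 0.35 with an adjusted p of 0.339. The 4 settings that passed all estimated the spread over arrays of both days, whereas day 12 arrays alone gave a limma adjusted p of 0.234.

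**Figure D2:**
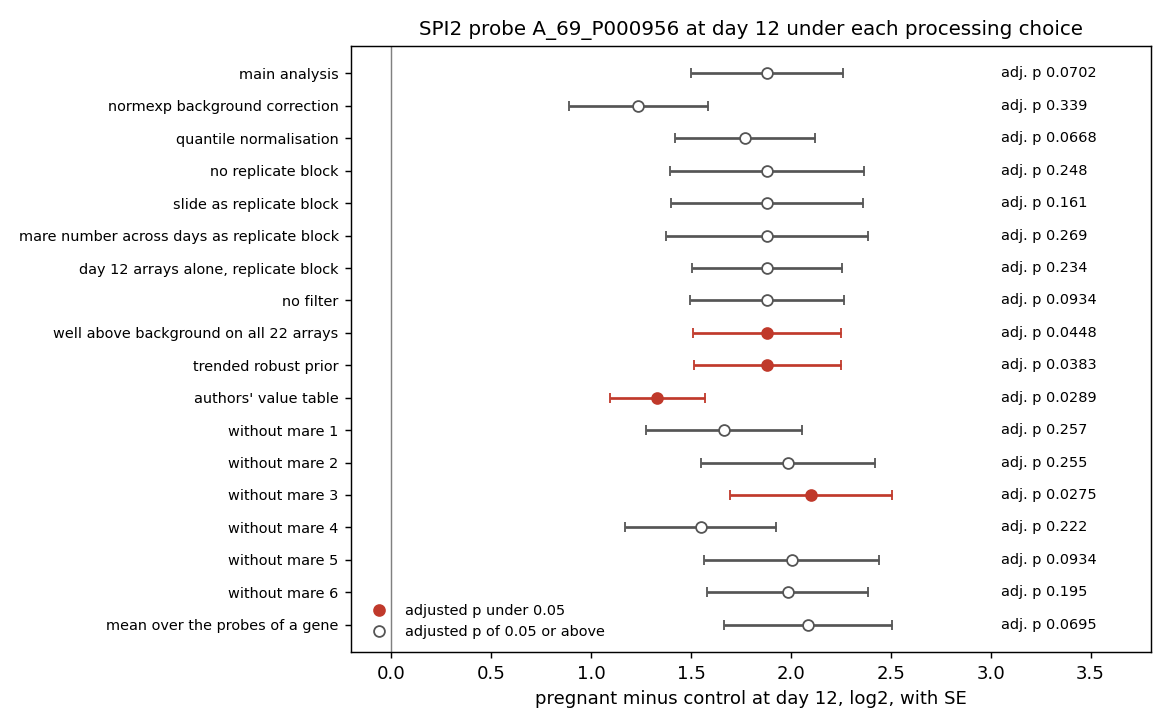
Difference between pregnant and control samples at day 12 for SPI2 probe A_69_P000956 (x axis, log2, bars are SE) under each processing choice (rows), with the limma adjusted p at the right. All 18 estimates lie above 0, between 1.24 and 2.10, and filled red points mark an adjusted p under 0.05. Rows that change only the SE or the probes tested repeat the main estimate. Leaving out a mare could not change the sign, since all mares were higher.

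At day 8, the stage on which SPI2 was chosen, its level was lower in pregnant samples in 4 of 5 mares. By probe A_69_P000956 the pregnant samples stood at 1.60% in mare 1, 0.986% in mare 2, 1.51% in mare 4, 0.901% in mare 5 and 5.15% in mare 6. The control samples stood at 6.77% in mare 1, 3.37% in mare 2, 2.85% in mare 4, 1.22% in mare 5 and 4.19% in mare 6. The groups overlapped, and mare 6 was the one with the higher level in pregnancy. The mean within-mare difference was -0.98 ± 0.97 log2 (SD, n = 5 mares), a level 1.98-fold lower in pregnancy. It was -0.30 with normexp background correction and -0.42 in the authors' deposited value table.

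By probe A_69_P023398 the day 8 difference was larger, -1.97 ± 1.46 log2 (SD, n = 5 mares). Here the detection flag was set on 1 of 5 arrays in pregnancy, that of mare 6, and on 4 of 5 in controls. Its pregnant samples stood at 0.545% in mare 1, 0.243% in mare 2, 0.382% in mare 4, 0.137% in mare 5 and 3.32% in mare 6. The control samples stood at 6.02% in mare 1, 2.18% in mare 2, 1.26% in mare 4, 0.441% in mare 5 and 2.88% in mare 6. Over all probes 0% passed the adjusted threshold at day 8 in limma's test and 5.84% had an unadjusted p under 0.05. Nothing is read from this for SPI2, which was chosen on this contrast.

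Taking the 4 groups in order by probe A_69_P000956, the geometric mean level was 9.76% in pregnant samples of day 12, 3.19% in controls of day 8, 2.65% in controls of day 12 and 1.62% in pregnant samples of day 8. Controls of the 2 days differed by -0.27 log2, day 12 minus day 8, within a pooled SD of 0.88, and each neighbouring pair in the order overlapped. Pregnant samples differed by 2.59 log2 between days against a pooled SD of 0.90. They did not overlap, with 5.31% as the lowest at day 12 and 5.15% as the highest at day 8, and 5.37% of all probes were separated in this direction. By probe A_69_P023398 they overlapped, with 3.20% as the lowest at day 12 and 3.32% as the highest at day 8. The difference between pregnant and control samples was 2.86 log2 higher at day 12 than at day 8 by A_69_P000956. By A_69_P023398 it was 4.26 log2 higher, a value that rests on day 8 pregnant arrays of which 1 of 5 was well above background. None of these comparisons was tested, because the day 8 arrays served to choose the gene and because day and batch cannot be told apart.

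**Figure D3:**
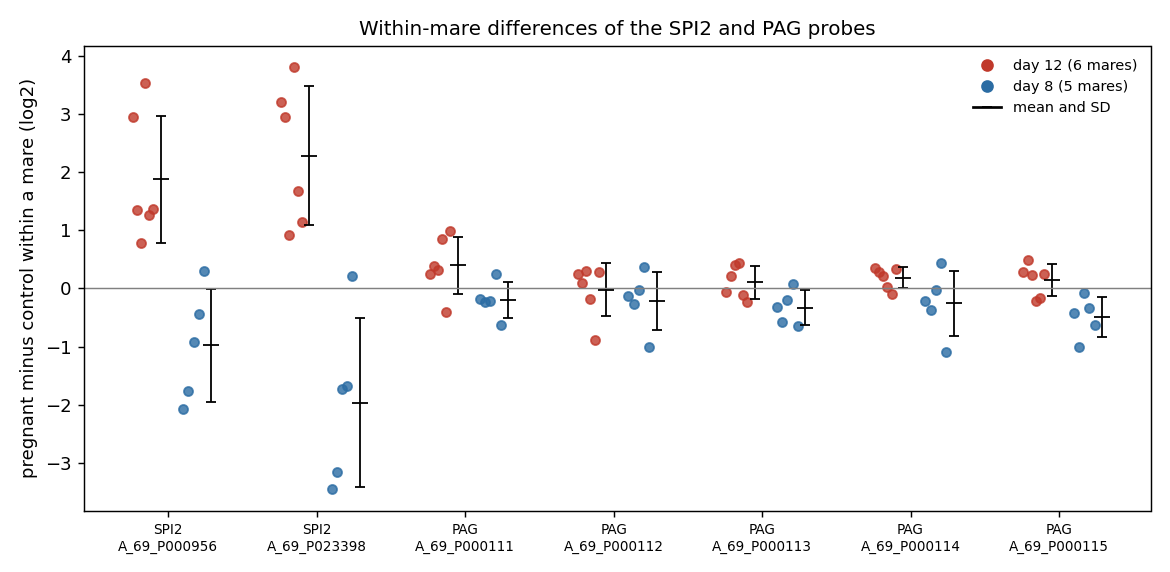
Pregnant minus control within each mare (y axis, log2) for the 2 SPI2 and 5 PAG probes (x axis), with day 12 in red and day 8 in blue and with mean and SD in black. The SPI2 points of day 12 lie between 0.79 and 3.82, and the PAG points of both days between -1.10 and 0.99.

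PAG was dim in all 4 groups, and its difference with pregnancy at day 12 did not pass the test by any of its 5 probes. The PAG probe with the highest mean level over the 22 arrays, A_69_P000112, was well above background on all 22 arrays. At day 12 the pregnant samples stood at 2.67% in mare 1, 4.14% in mare 2, 2.21% in mare 3, 1.51% in mare 4, 2.32% in mare 5 and 2.27% in mare 6. The control samples stood at 2.24% in mare 1, 3.87% in mare 2, 1.80% in mare 3, 1.71% in mare 4, 4.29% in mare 5 and 1.87% in mare 6. The groups overlapped over nearly their whole range, with 4 mares higher and 2 lower in pregnancy. The difference was -0.02 ± 0.18 log2 (SE, n = 6 mares, limma adjusted p = 0.973), with a 95% interval of 0.746 to 1.30-fold.

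The other 4 PAG probes differed at day 12 by 0.11 to 0.40 log2, with limma adjusted p-values of 0.343 to 0.7503. The largest belonged to A_69_P000111 (0.40 ± 0.16, SE, n = 6 mares, limma adjusted p = 0.343), the dimmest of the 5, for which the detection flag was set on 5 of 6 arrays in pregnancy and on 4 of 6 in controls. Of the 5 PAG probes 0 passed limma's adjusted threshold, against 0.265% of all probes, and 1 was higher with an unadjusted p under 0.05, as were 5.67% of all probes. Without mare 3 the differences of the other 4 were 0.41 for A_69_P000111, 0.05 for A_69_P000113, 0.18 for A_69_P000114 and 0.13 for A_69_P000115. The sign of A_69_P000112 was not settled, since the difference was -0.0875 without mare 3, 0.15 without mare 5, 0.16 as the mean over all 5 probes and 0.64 with normexp background correction. The 95% intervals of the 5 probes together reached from -0.42 to 0.76 log2, below the 1.04 at which that of SPI2 probe A_69_P000956 began.

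**Figure D4:**
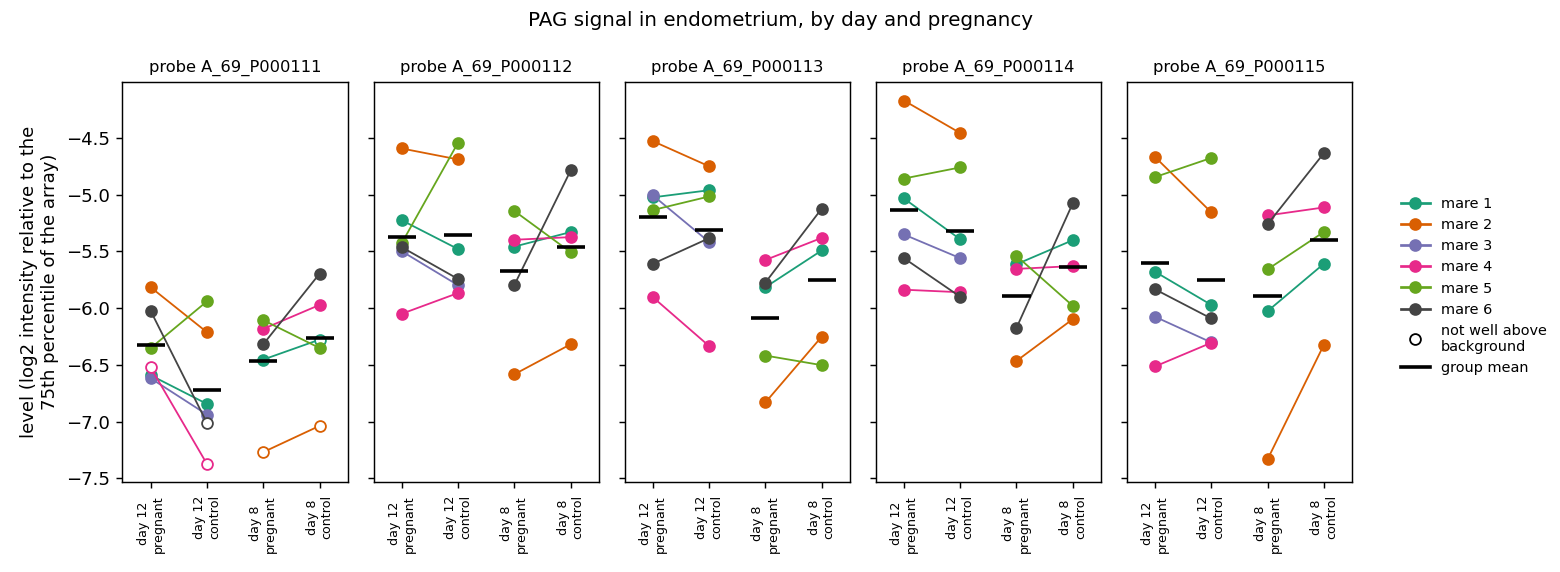
PAG level on each of the 22 arrays (y axis, log2 of intensity over the array's 75th percentile) by group (x axis), 1 panel per probe. Lines join the pregnant and the control sample of a mare, open circles are not well above background and bars are group means. All 5 probes stay between -7.37 and -4.17, and the 4 groups overlap in each panel.

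At day 8 PAG was lower in pregnant samples in 4 of 5 mares by 4 probes and in 5 of 5 by A_69_P000115, and these values served to choose the gene. By A_69_P000115 the pregnant samples stood at 1.53% in mare 1, 0.621% in mare 2, 2.75% in mare 4, 1.98% in mare 5 and 2.61% in mare 6. The control samples stood at 2.05% in mare 1, 1.25% in mare 2, 2.89% in mare 4, 2.49% in mare 5 and 4.02% in mare 6. The mean difference was -0.49 ± 0.35 log2 (SD, n = 5 mares), and the groups overlapped. By A_69_P000112 it was -0.21 ± 0.50, and mare 5 was higher in pregnancy.

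The order of PAG levels differed between probes. By A_69_P000112 the geometric means were 2.41% in pregnant and 2.45% in control samples of day 12 and 1.96% in pregnant and 2.27% in control samples of day 8, all closer together than the SD of a group (0.47 to 0.59 log2). By A_69_P000113 pregnant samples were 0.88 log2 higher at day 12 than at day 8 (pooled SD 0.50), and by A_69_P000111 0.15 (pooled SD 0.40). Between the probes the levels correlated at 0.46 to 0.87 over the 22 arrays and the within-mare differences at 0.52 to 0.84 over the 11 pairs, against the 0.96 and 0.97 of the SPI2 probes.

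By the probe of each gene with the highest mean level, PAG and SPI2 had little in common. The correlation between A_69_P000112 and A_69_P000956 was 0.19 over the 22 array levels and 0.09 over the 11 within-mare differences. The other PAG probes were not compared with SPI2 in this way, so the statement holds for this pair of probes only. Mare 6 at day 8 had the highest SPI2 level of the pregnant samples of that day and a difference of 0.30 log2, while its PAG difference by A_69_P000112, -1.01 log2, was the lowest among its mares.

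How far PAG signal stood above the array's own background was read from the 153 negative control spots, which carry no gene's sequence. On 22 of 22 arrays each PAG probe was brighter than the 95th percentile of these spots. PAG probe A_69_P000112 exceeded every one of them on 4 of 6 pregnant and 5 of 6 control arrays of day 12, and on 2 of 5 pregnant and 1 of 5 control arrays of day 8. For SPI2 probe A_69_P000956 these counts were 6 of 6 and 5 of 6 at day 12, and 1 of 5 and 2 of 5 at day 8. For SPI2 probe A_69_P023398 they were 6 of 6 and 3 of 6 at day 12, and 0 of 5 and 2 of 5 at day 8. This probe exceeded the 95th percentile on 4 of 5 pregnant arrays of day 8.

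Of 607 other named genes compared, those with within-mare differences like those of SPI2 over the 11 pairs included CDH13, a cadherin anchored in the membrane by a lipid (r = 0.86), PYGL, a glycogen phosphorylase (0.82), the export transporter ABCC1 (0.79) and USP32, a deubiquitinating enzyme (0.79). These correlations are descriptions over pairs that share their arrays and scaling and that fall into 2 days. Within the 6 pairs of day 12 they were 0.80 for CDH13, 0.61 for PYGL, 0.79 for ABCC1 and 0.58 for USP32. Within the 5 pairs of day 8 they were 0.41 for CDH13, 0.28 for PYGL, -0.69 for ABCC1 and 0.99 for USP32. At day 12 CDH13 stood higher by 1.07 ± 0.16 log2 (SE, n = 6 mares, limma adjusted p = 0.0192) and ABCC1 by 0.68 ± 0.12 (limma adjusted p = 0.0474). PYGL was higher in 5 of 6 mares (0.44 ± 0.12, limma adjusted p = 0.142). The threshold was passed by 0.265% of all probes. These genes were picked for likeness to SPI2 over pairs that include those of day 12. A higher level at day 12 is thus partly given by the choice and is no separate result.

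Over the levels of all 22 arrays the genes like SPI2 included CDH13 (r = 0.73), the granule protein gene CHGA (0.72), PMP22, a myelin and epithelial membrane protein (0.69), and CD74, the invariant chain of class II antigen presentation (0.69). CHGA differed by 2.79 ± 0.48 log2 at day 12 (SE, n = 6 mares, limma adjusted p = 0.0449, higher in 6 of 6) and by -1.30 at day 8 (higher in 0 of 5). Within day 12 its levels correlated with SPI2 at 0.77 over 12 arrays and within day 8 at 0.17 over 10 arrays. CHGA too was picked from these arrays for likeness to SPI2, so its day 12 difference is no separate result.

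**Figure D5:**
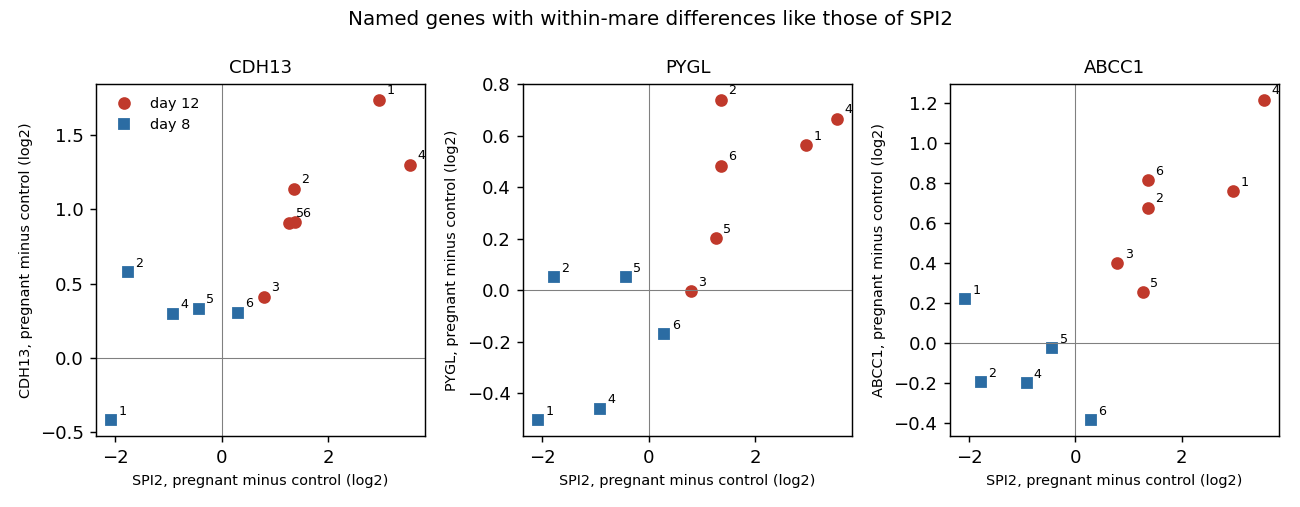
Pregnant minus control within a mare (log2) for CDH13, PYGL and ABCC1 (y axes) against SPI2 probe A_69_P000956 (x axes), 1 point per pair, numbered by mare, with day 12 as red circles and day 8 as blue squares. Mare 3 has the smallest SPI2 difference of day 12, 0.79, and the smallest of that day for CDH13 (0.41) and PYGL (-0.0048), while mare 5 has the smallest for ABCC1 (0.25).

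The genes most like PAG in level were CRISP2, a cysteine-rich secretory protein (r = 0.84), LOC100069804 (0.78), LOC100051562 (0.75), FCER2, the low-affinity IgE receptor (0.73), and CLTC, the clathrin heavy chain (0.73). Of these, CRISP2 was well above background on 6 of 22 arrays, LOC100051562 on 10 and FCER2 on 15. By within-mare differences they were WDR70 (0.86), LSM8 (0.77), OR2T1B (0.77), TMEM61 (0.76) and DDX6 (0.75), whose own day 12 differences lay between 0.02 and 0.30 log2. None of these 10 genes passed the threshold at day 12, which 0.265% of all probes did. Their adjusted p-values by limma lay between 0.454 and 0.964. All 10 were picked from these same arrays for likeness to PAG probe A_69_P000112, which differed by -0.02 log2 at day 12. Nothing is therefore read from this count.

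Other serpins were barely covered by named probes. Of 29 serpin genes listed, SERPINB1 and SERPINF1 were measured besides SPI2, and both stood lower at day 12, by -0.15 ± 0.08 and -0.24 ± 0.11 log2 (SE, n = 6 mares, limma adjusted p = 0.446 and 0.407), with 2 of 6 and 0 of 6 mares higher. SERPINB1 encodes an inhibitor of neutrophil proteases and SERPINF1 the secreted pigment epithelium-derived factor, which does not inhibit proteases. The median of the 2 was -0.20, against 0.00 over 609 named genes, of which 50.1% were higher. In the reference table SPI2 lies between SERPINA6 and SERPINA11, next to LOC100065068, whose synonyms carry the name Spi2, and SERPINA14, the uterine serpin of ruminants and pigs, lies near. None of these neighbours had a probe by RefSeq accession. Which gene copies the SPI2 probes bind was not tested.

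Of 20 other protease inhibitor genes, TIMP1 and TIMP3, inhibitors of matrix metalloproteinases, were measured. TIMP1 stood 0.60 ± 0.15 log2 higher at day 12 in 6 of 6 mares (SE, limma adjusted p = 0.117) and TIMP3 0.34 ± 0.16 in 4 of 6 (limma adjusted p = 0.423). Of 25 genes of serine proteases and their partners 4 were measured, with a median of -0.10, and 0 had an adjusted or an unadjusted p under 0.05 by limma, against 0.265% and 12.5% of all probes. They were the tissue kallikreins KLK1 (0.01 ± 0.14) and KLK1E2 (-0.13 ± 0.23), granzyme B, GZMB (-0.07 ± 0.38), and mast cell tryptase, TPSB2 (-0.23 ± 0.44). No aspartic protease or cathepsin of the 18 listed other than PAG had a named probe.

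Secreted uterine proteins had 5 of 16 listed genes measured, 3 higher and 2 lower at day 12, with a median of 0.28 log2, 0 past limma's adjusted threshold and 2, RBP4 and CLU, with an unadjusted p under 0.05, which 12.5% of all probes had. Retinol-binding protein, RBP4, stood at 0.59 ± 0.26 log2 (SE, n = 6 mares, limma adjusted p = 0.381), the chaperone CLU at 0.46 ± 0.18 (0.331), transferrin, TF, at 0.28 ± 0.16 (0.499) and the peroxidase GPX3 at -0.13 ± 0.14 (0.732). Of 9 matrix metalloproteinase and ADAMTS genes 3 were tested, 2 higher and 1 lower by their mean difference. MMP9 stood at 0.27 ± 0.50, although only 2 of 6 mares were higher. Of 13 genes of progesterone and oestrogen response 5 were tested, 1 higher and 4 lower, with HSD11B2, which inactivates cortisol, at -0.77 ± 0.23, lower in 6 of 6 mares (limma adjusted p = 0.193) and the oestrogen receptor ESR1 at -0.18 ± 0.17. Of the metalloproteinase and steroid response genes 0 passed by limma's adjusted p, against 0.265% of all probes. HSD11B2 alone had an unadjusted p under 0.05 by limma (0.0055), against 12.5% of all probes.

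Markers of cells that could bring serpin or PAG transcript into the biopsy were compared in the same fit, and their part in the SPI2 and PAG values was not tested. Of 8 liver and blood plasma genes only albumin, ALB, was measured, and it differed by 0.05 ± 0.14 log2 at day 12 (SE, n = 6 mares), with 3 of 6 mares higher. Of 609 named genes 50.1% were higher at day 12. Of 6 macrophage and dendritic cell markers 4 were measured, with mean differences of 0.00 to 0.51 log2 at day 12. Of the 4, 0 passed limma's adjusted threshold, against 0.265% of all probes. CD14 stood at 0.51 ± 0.16 (5 of 6 mares higher, limma adjusted p = 0.214) and ITGAX at 0.17 ± 0.22 (4 of 6). LAPTM5 stood at 0.08 ± 0.15 (4 of 6) and CD68 at 0.00 ± 0.15 (2 of 6). The mean level of the 4 markers ranged from -1.21 to -0.70 log2 in pregnant and from -1.43 to -0.79 in control samples of day 12. At day 8 it ranged from -1.23 to -0.60 in pregnant and from -1.29 to -0.48 in control samples. No neutrophil or B cell marker had a named probe.

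Of 12 trophoblast and conceptus genes 2 were tested. CGA, the common subunit of gonadotropins, stood at 0.25 ± 0.23 log2 and the aromatase CYP19A1 at -0.01 ± 0.17 at day 12 (SE, n = 6 mares, limma adjusted p = 0.699 and 0.989). Their mean level ranged from -3.89 to -3.15 in pregnant and from -4.17 to -3.14 in control samples of day 12, and from -3.75 to -2.47 in pregnant and from -3.02 to -2.38 in control samples of day 8. The smooth muscle gene TAGLN stood 0.90 ± 0.23 higher at day 12 in 6 of 6 mares (limma adjusted p = 0.139) and the endothelial gene PECAM1 0.44 ± 0.16 in 4 of 6 (limma adjusted p = 0.305), whereas epithelial ESRP1 stood at 0.00 ± 0.08. Of 4 endocrine cell markers 2 were measured, CHGA, which rose (2.79 ± 0.48, limma adjusted p = 0.0449), and SV2A, which stood at -0.22 ± 0.19 (limma adjusted p = 0.689). CHGA was the 1 gene of all lists and marker sets past the threshold, which 0.265% of all probes passed. The lists were drawn up with earlier results of these data known, so nothing is read from this count. Red cell HBA2 stood at -0.40 ± 0.23 and platelet ITGA2B at -0.29 ± 0.08 (limma adjusted p = 0.158), and the T cell gene CD2 at 0.04 ± 0.20.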

How the data were processed

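Spot intensity on a linear scale is the authors' deposited Agilent Feature Extraction output, which the submitters' processing notes give as version 10.5.1.1 and the file headers as 10.5.1.1 at day 12 but 10.7.3.1 at day 8. Values of the authors' deposited table were read as log2, with normalisation and centring unstated, and served as an alternative only. The main values were log2 processed intensity minus the array's 75th percentile over non-control spots, without non-uniform outlier spots, averaged per probe. Probes well above background on at least 5 of 22 arrays were tested with limma 3.58.1 in R 4.3.3 (lmFit, eBayes, two-sided, Benjamini-Hochberg over 38461 probes, threshold 0.05), fitting 1 pregnancy term for each day beside fixed terms for the mares of that day. The code was checked on simulated data. Precision is limited by the number of arrays.

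Samples were paired by the mare number of the labels, and the 2 arrays of a pair deviated together from their groups (r = 0.29 to 0.74). The arrays of a pair also shared slide and scan day, so this correlation cannot tell mare from slide. Symbols come from RefSeq accessions of the assembly TB-T2T, which named 1394 probes and left 42208 without a name and 1 with several. Genes, lists and members were chosen with earlier results of these data known. A gene stands by its probe with the highest mean level. Named are all SPI2 and PAG probes, the 5 named genes most like each by Pearson r, and up to 4 genes of each list with the smallest p at day 12, except 1 gene that is not reported here. The files hold median but not mean spot signals, so normexp (offset 50) was run on the medians. Other alternatives were quantile normalisation, other blocks, filters and priors, and leaving out each mare number with all its arrays, of either day. Mares were the replicates.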

Additional observations from a re-analysis of the deposited data

How the results depend on the processing

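At day 12 both SPI2 probes stayed higher in pregnancy under all 18 and 16 alternatives run for them. Only normexp, quantile normalisation and the authors' table could have changed this sign. The others kept the main estimate or averaged over mares and probes that were all higher. For A_69_P000956 the adjusted p passed with probes well above background on all 22 arrays, the trended robust prior (both 1.88) and the authors' table (1.33), and the exact sign-flip test (1.88) gave p = 0.0312. For A_69_P023398 it passed with the trended prior (2.29) and in the authors' table (1.38), the exact sign-flip test gave p = 0.0312, and leaving out a mare gave 1.98 to 2.56. Both passed without mare 3 (2.10 and 2.56). Leaving out a mare gave 1.55 to 2.10 for A_69_P000956. The limma adjusted p of A_69_P000956 was 0.248 without the replicate block and 0.234 from day 12 arrays alone. For this probe normexp, which moved the median of all probes to 0.34, gave 1.24, or 0.90 beyond that median. PAG probe A_69_P000112 turned to 0.64 with normexp (0.31 beyond the median), 0.0167 in the authors' table and 0.16 over all PAG probes, and ranged from -0.0875 to 0.15 without a mare (0.01 without mare 4, 0.15 without mare 5). The 102 probes past the threshold became 13 with normexp, 41 with no replicate block, 56 with mare number across days as block, 9 with day 12 arrays alone, 218 with detection on all arrays, 287 with the trended prior and 303 in the authors' table. Without a mare they were 22 to 977, namely 22 without mare 1, 31 without mare 2, 977 without mare 3, 47 without mare 4 and 28 without mare 6. Each of these runs dropped the number's arrays of both days, except that of mare 3, which has day 12 arrays only. The day difference of SPI2 among pregnant arrays, 2.59, became 1.43 with normexp and 1.54 in the authors' table, and 2.24 to 3.14 without a mare. At day 8 SPI2 ranged from -1.30 to -0.71 and PAG from -0.36 to -0.01 without a mare. The cause of these shifts was not tested. SPI2 probe A_69_P023398 was well above background on 1 of 5 pregnant arrays and 4 of 5 control arrays of day 8.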
